A study of Mus musculus with 12 samples.

Results

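The CEBP family of bZIP transcription factors was followed through 12 RNA-seq libraries of mouse bone marrow progenitors. Its members were taken by symbol: Cebpa, Cebpb, Cebpd, Cebpe, Cebpg and Ddit3, which encode the bZIP proteins of the family, and Cebpz, which shares the name. All 7 were found among the 23387 genes joined over the libraries. The study asked what an enhancer of Cebpa does in early haematopoiesis, and its design text speaks of Cebpa null mice, while the genotype labels name a homozygous deletion of the +42 kb enhancer of Cebpa. The enhancer-null common myeloid progenitors (CMP) were set against wild-type CMP, and enhancer-null LSK cells, the stem and progenitor fraction defined by lack of lineage markers and presence of Sca-1 and Kit, against wild-type LSK cells. Each of the 4 groups had 3 libraries, with the numbers 1, 2 and 7 in the enhancer-null groups and 1, 6 and 8 in the wild-type groups. All mice were C57BL/6, the LSK cells carry the label of haematopoietic stem cells, and the labels give neither the age nor the sex of the animals.

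C/EBP proteins bind DNA as dimers through a basic region and a leucine zipper, and most members recognise the same palindromic site, so that the paralogs can pair with each other and occupy the same elements. In the marrow, C/EBPα commits progenitors to the granulocyte and monocyte fates and holds back proliferation, C/EBPβ drives granulopoiesis under infection and other demand, C/EBPδ is induced by inflammatory cytokines, and C/EBPε is needed for the last steps of neutrophil maturation. C/EBPγ lacks a classical activation domain. It and CHOP, the product of Ddit3, act largely by pairing with other family members, CHOP under cellular stress.

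The start of Cebpa is shown here because it is the gene whose enhancer was deleted, and that of Cebpb because it had the highest length-corrected level of the family in all 4 groups. Of the 7 members, 4 had an entry in the RefSeq promoter table of build GRCm38.p6 (Cebpa, Cebpb, Cebpg and Ddit3). Both sequences give the 250 bases before the annotated start on the plus strand, Cebpa at chr7:35119043-35119292 and Cebpb at chr2:167688665-167688914, and the Cebpb interval lies between exons of Tmem189 on the other strand. Capitals mark matches on either strand to TTGCG (the core of a C/EBP site), TGACG (the core of a cyclic AMP response element), CCAAT or TATAAA, and none of the marked matches overlapped another.
Cebpa: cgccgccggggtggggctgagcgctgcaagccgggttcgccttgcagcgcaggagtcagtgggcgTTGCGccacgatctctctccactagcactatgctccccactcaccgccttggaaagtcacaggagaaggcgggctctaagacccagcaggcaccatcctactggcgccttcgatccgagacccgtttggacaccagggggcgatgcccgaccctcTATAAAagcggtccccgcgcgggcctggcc
Cebpb: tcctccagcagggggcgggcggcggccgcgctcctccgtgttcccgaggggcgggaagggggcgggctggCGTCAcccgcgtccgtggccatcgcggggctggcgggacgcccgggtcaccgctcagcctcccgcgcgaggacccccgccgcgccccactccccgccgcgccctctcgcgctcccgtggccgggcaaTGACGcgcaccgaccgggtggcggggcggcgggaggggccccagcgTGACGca
The Cebpa sequence held 1 TTGCG, 185 to 181 bases before the start, and 1 TATAAA, 30 to 25 bases before it. The Cebpb sequence held 3 TGACG, of which 1 was on the minus strand, and none of the other motifs. Of 32817 mouse promoter windows of the same length, 14.5% held TTGCG, 17.7% TGACG, 33.8% CCAAT and 12.4% TATAAA, so that each motif is common by its letters alone. No protein sequence is shown.

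The libraries held 6170491 to 49149674 counts assigned to genes. Levels are given as CPM, the counts of a gene relative to all gene counts of its library, scaled over the 12 libraries by TMM. Summed over 10 stem and progenitor markers, the level was 917 to 1240 CPM in enhancer-null CMP and 1540 to 1760 CPM in wild-type CMP, against 2350 to 2610 CPM in enhancer-null LSK and 3440 to 3780 CPM in wild-type LSK. Enhancer-null CMP replicate 1 and wild-type LSK replicate 6 are left out at several points below because levels of family members stood apart in them. They also had the largest shares of well expressed genes with no count. Of the 9184 genes averaging 10 CPM or more, 3.56% were at 0 in the CMP library and 1.82% in the LSK library, against 0% to 1.55% in the other 10 libraries. The LSK library lay close to the highest of these, enhancer-null CMP replicate 7, so that this share alone does not set it apart. By Xist and Y-linked counts, 2 of 3 enhancer-null numbers and 1 of 3 wild-type numbers were male in both cell types, so that sex was not balanced. The labels do not say that replicates came from separate animals, and p-values measure the spread between these libraries only. In sorted bulk RNA a lower level from fewer cells of a type and one from less RNA per cell cannot be told apart.

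Only 1 of the family's comparisons passed edgeR's quasi-likelihood test at an adjusted p of 0.05, the lower Cebpb in wild-type CMP against wild-type LSK. In the genotype comparison of CMP, 0 of 7 members passed, as against 62 of 11723 genes (0.529%), and 2 members (Cebpa and Cebpb) had an unadjusted p below 0.05. DESeq2 called those 2 members. In the genotype comparison of LSK, 0 of the 6 members tested passed, as against 12 of 11621 genes (0.103%), with 1 (Cebpa) at an unadjusted p below 0.05 and 1 (Cebpa) called by DESeq2. Between the wild-type cell types, 1 of 7 members passed, as against 507 of 12030 genes (4.21%). Between the enhancer-null cell types no gene passed, 0 of 11267 (0%), among them 0 of the 5 members tested. There 780 genes had an unadjusted p below 0.05, none of them a member, and DESeq2 called 366 genes, again no member. The difference of the genotype effects between CMP and LSK was called for 37 of 12687 genes (0.292%) and for 0 of 7 members. In that test Ddit3 had an unadjusted p below 0.05, and DESeq2 called 243 genes, none of them a member.

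Counted by whether the 3 libraries of a group all lay beyond those of the other, the members separated as follows. In enhancer-null against wild-type CMP, 1 of 7 members lay wholly higher (Cebpb), beside 10.8% of all genes tested, and 3 wholly lower (Cebpa, Cebpd and Cebpe), beside 12.9%. In enhancer-null against wild-type LSK, 0 of 6 members lay wholly higher, beside 8.62%, and 2 wholly lower (Cebpa and Ddit3), beside 10.4%. In wild-type CMP against wild-type LSK, 2 of 7 lay wholly higher (Cebpa and Cebpd), beside 15.9%, and 1 wholly lower (Cebpb), beside 17.4%. In enhancer-null CMP against enhancer-null LSK, 1 of 5 lay wholly higher (Ddit3), beside 7.57%, and 0 wholly lower, beside 9.24%. The separation of Cebpe in CMP came down to 0.588 CPM in enhancer-null replicate 2 against 0.647 CPM in wild-type replicate 8. Cebpe in LSK, and Cebpa and Cebpe between the enhancer-null cell types, were too low to be tested. A count of 1 in so few members lies near these background shares and is not read as a result about the family. The genotype comparisons and the cell type comparisons share libraries with each other, so that their values below stand side by side and are not independent.

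**Figure D1:**
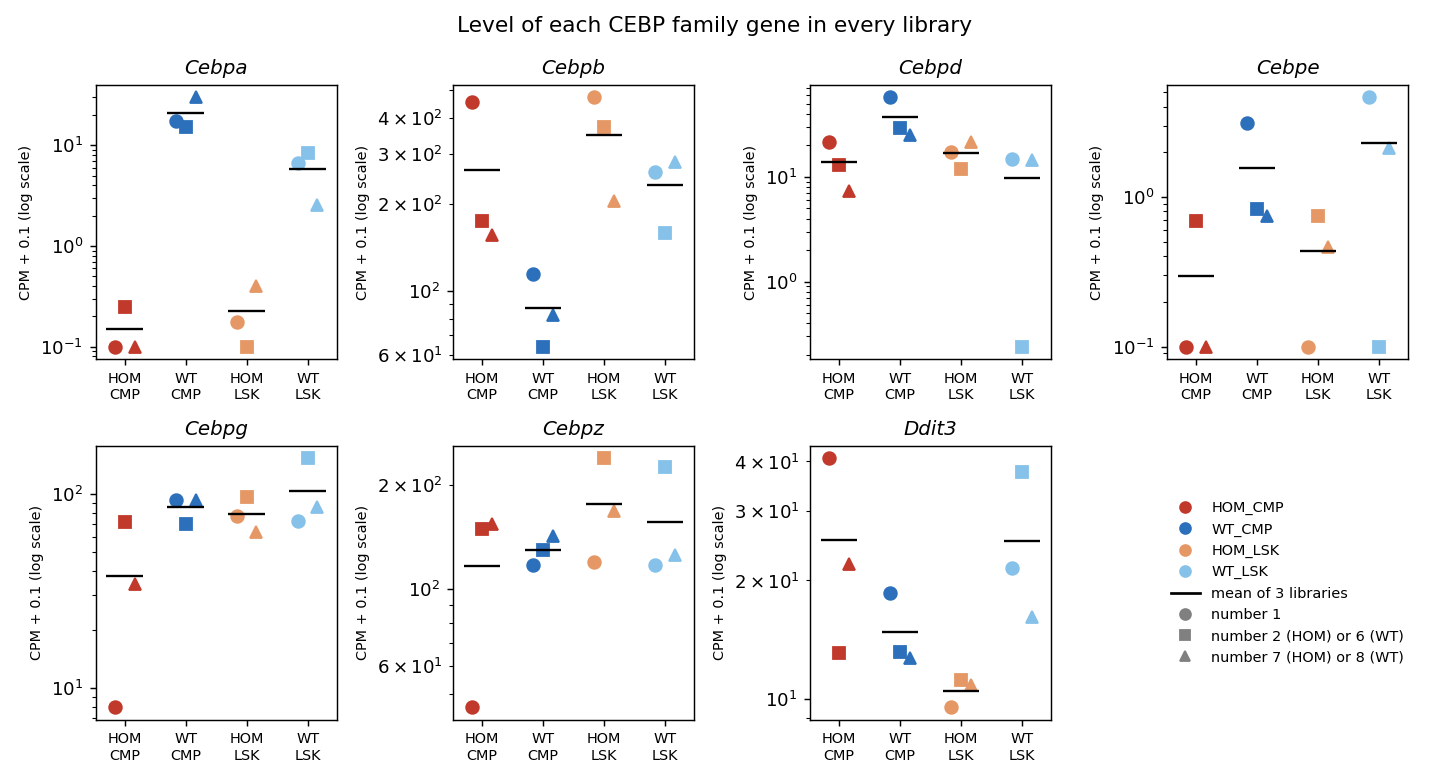
Level of each of the 7 CEBP family genes in every library, as CPM + 0.1 on a log axis; each point is 1 library, the marker shape gives the label's number and the line is the mean of 3. The Cebpa points of both enhancer-null groups lie below every wild-type point, and the Cebpb points of enhancer-null CMP lie above those of wild-type CMP.

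Cebpa (ENSMUSG00000034957.10) is a single-exon gene on the plus strand at chr7:35119293-35121928 of GRCm38. It had 0, 3 and 0 counts in enhancer-null CMP, against 544, 270 and 463 counts in wild-type CMP, or 17.3, 15.04 and 29.95 CPM. It had 1, 0 and 15 counts in enhancer-null LSK, against 226, 118 and 39 counts in wild-type LSK, or 6.52, 8.25 and 2.46 CPM. In both cell types every enhancer-null library thus lay below every wild-type library, and the enhancer-null CMP libraries together did not exceed a floor of 3 counts. The depth-scaled ratio of summed counts, wild type over enhancer-null, was 299 in CMP (95% exact interval 102 to 1451) and 25.4 in LSK (15.5 to 45.0), intervals that cover counting error only. The fitted log2 fold change was −8.34 in CMP (SE 1.60, 95% interval −12.07 to −4.61, adjusted p = 0.0822) and −5.24 in LSK (SE 1.77, −9.36 to −1.13, adjusted p = 0.499).

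DESeq2 called Cebpa lower in CMP (adjusted p = 1.12e-11) and in LSK (adjusted p = 0.00693), and edgeR did so in CMP without a filter on low counts (adjusted p = 0.0133) and with all 12 libraries in 1 fit (adjusted p = 0.0337). Across the 12 alternatives, adjusted p lay between 1.12e-11 and 0.339 for CMP and between 0.00693 and 0.951 for LSK. In wild-type cells Cebpa averaged 20.8 ± 8.04 CPM in CMP and 5.74 ± 2.97 CPM in LSK (SD, n = 3 each), with no overlap, a log2 fold change of 1.91 (SE 0.74, 95% interval 0.18 to 3.64, adjusted p = 0.201, and 0.0192 by DESeq2). In the enhancer-null animals it was at 0 to 0.147 CPM in CMP and at 0 to 0.302 CPM in LSK, which overlapped. The difference between the genotype effects, −3.15 on the log2 scale, had a 95% interval of −7.41 to 1.11 (adjusted p = 0.784). It was −6.58 without enhancer-null CMP replicate 2 and −1.61 without enhancer-null LSK replicate 7. Monocyte and macrophage markers, summed over 10 genes, moved with Cebpa in CMP, at 55.2 to 223 CPM in enhancer-null CMP, 973 to 1070 CPM in wild-type CMP, 127 to 202 CPM in enhancer-null LSK and 95.5 to 125 CPM in wild-type LSK. Of the 10, 6 to 9 had counts in an enhancer-null CMP library, 8 to 10 in wild-type CMP, 7 to 9 when LSK cells were enhancer-null and 6 to 10 when they were wild type, and the macrophage gene Adgre1 was at 0 throughout enhancer-null CMP. Their part in the level of Cebpa was not tested.

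Cebpb (ENSMUSG00000056501.3, a single exon on the plus strand, chr2:167688915-167690418) encodes the C/EBP protein that can take over functions of C/EBPα in mice. Its level was 455, 174.9 and 156.5 CPM in enhancer-null CMP replicates 1, 2 and 7, against 114.5, 63.9 and 82.1 CPM in the 3 wild-type CMP libraries. The enhancer-null libraries all lay above the wild-type ones, the first of them by far. The log2 fold change was 1.60 (SE 0.45, 95% interval 0.56 to 2.65, adjusted p = 0.213), and 0.92 (adjusted p = 0.251) without enhancer-null replicate 1. DESeq2 called it higher (adjusted p = 0.0319). In LSK its level was 471, 371 and 205.5 CPM in enhancer-null cells, against 258.5, 159 and 280.5 CPM in wild-type cells, which overlapped (log2 fold change 0.61, SE 0.34, 95% interval −0.18 to 1.40, adjusted p = 0.697). Without wild-type LSK replicate 6 it was 0.38 (adjusted p = 0.798). Mast cell and basophil markers, summed over 10 genes, were at 1770 to 2380 CPM in enhancer-null CMP, 109 to 315 CPM in wild-type CMP, 487 to 853 CPM in enhancer-null LSK and 205 to 324 CPM in wild-type LSK. In wild-type LSK replicates 1, 6 and 8, Gata2 alone made up 212, 310 and 197 CPM of sums of 233, 324 and 205 CPM. Gata2 is also counted below among factors of stem and progenitor enhancers. A library held counts of 6 to 7 of the 10 in enhancer-null CMP, 7 to 8 in wild-type CMP, 6 to 9 when LSK cells were enhancer-null and 3 to 9 when they were wild type, with Prss34 and Cma1 at 0 in all enhancer-null CMP libraries and Tpsb2 at 0 in all of these and all wild-type libraries of both cell types. Of this list, 2 of 7 tested genes passed as higher in enhancer-null CMP, the protease genes Cpa3 (1100 ± 211 CPM in enhancer-null and 41.7 ± 20.1 CPM in wild-type CMP, adjusted p = 0.00425) and Gzmb (463 ± 190 CPM in enhancer-null and 0.808 ± 1.02 CPM in wild-type CMP, adjusted p = 0.0121), and Cpa3 passed in LSK as well (adjusted p = 0.0128). The list did not move as a whole in CMP, with 4 of the 7 log2 fold changes positive and 3 negative. Prss34 had the highest level of the list in wild-type CMP replicate 1, at 113 CPM. T and NK cell markers summed to 463 to 712 CPM in enhancer-null CMP, against 105 to 187 CPM in wild-type CMP, and to 526 to 718 CPM in enhancer-null LSK, against 221 to 290 CPM in wild-type LSK. Of these, Tcf7 and Lat passed as higher in CMP (adjusted p = 0.00846 and 0.0256) and Tcf7 in LSK (adjusted p = 0.00299), and Cd3e was at 0 in all enhancer-null CMP libraries. Megakaryocyte markers summed to 409 to 575 CPM in enhancer-null CMP, against 212 to 251 CPM in wild-type CMP, and in LSK to 394 to 453 CPM in enhancer-null cells, against 561 to 665 CPM in wild-type cells. The part of these 3 lists in the level of Cebpb was not tested.

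Between the wild-type cell types Cebpb passed the test, while the test of no other member did, which does not show that the others were alike. Cebpb averaged 86.8 ± 25.6 CPM in CMP and 233 ± 64.7 CPM in LSK (SD, n = 3 each), with every CMP library below every LSK library, and fell by 1.36 on the log2 scale in CMP (SE 0.30, 95% interval −2.06 to −0.67, adjusted p = 0.04997). The call stood at the threshold: 8 of 13 alternatives lost it, with adjusted p from 0.000817 to 0.179 over the 13, and the log2 fold change between −1.64 and −1.21. Leaving out 1 library gave an adjusted p of 0.0816 without wild-type CMP replicate 1, 0.161 without replicate 6 and 0.179 without replicate 8, and of 0.128 without wild-type LSK replicate 1, 0.0135 without replicate 6 and 0.124 without replicate 8. Erythroid markers, summed over 10 genes, were at 4890 to 5550 CPM in wild-type CMP and 1520 to 1800 CPM in wild-type LSK, with 8 to 9 of them detected in a CMP library and 8 in an LSK library and the globin gene Hba-a1 at 0 in all 12 libraries. Of 8 tested, 6 passed as higher in wild-type CMP (Ermap, Car2, Tfrc, Car1, Epor and Klf1), Ermap at 299 ± 67.0 CPM in CMP and 1.61 ± 1.60 CPM in LSK (adjusted p = 0.00654), and their part in this change of Cebpb was not tested. Between the enhancer-null cell types Cebpb averaged 262 ± 167 CPM in CMP and 349 ± 134 CPM in LSK, a log2 fold change of −0.42 (95% interval −1.50 to 0.67, adjusted p = 0.949). Without enhancer-null CMP replicate 1 that value was −1.06 (adjusted p = 0.475). The genotype effects in CMP and LSK differed by 1.02 (95% interval −0.25 to 2.30, adjusted p = 0.749), so that a larger effect in either cell type was not shown, and by 0.27 without enhancer-null CMP replicate 1. The exons of Tmem189, on the opposite strand, overlap 312 of the 1504 bases of the Cebpb exon. Tmem189 was at 80.9, 30.6 and 79.7 CPM in enhancer-null CMP and at 46.4, 43.0 and 45.2 CPM in wild-type CMP, and without strand information reads of the overlap cannot be told apart.

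Cebpd (ENSMUSG00000071637.5, a single exon on the plus strand, chr16:15887286-15891031), the paralog induced through IL-6 and STAT3, stood at 21.6, 12.8 and 7.17 CPM in enhancer-null CMP, against 57.2, 29.0 and 24.9 CPM in wild-type CMP. These groups did not overlap, with the highest enhancer-null library just under the lowest wild-type one. The log2 fold change was −1.41 (SE 0.62, 95% interval −2.85 to 0.03, adjusted p = 0.412). In LSK its level was 17.0, 11.9 and 21.6 CPM in enhancer-null cells, against 14.6, 0.14 and 14.3 CPM in wild-type cells. Wild-type LSK replicate 6 held 2 counts of Cebpd, and the other wild-type LSK libraries lay within the enhancer-null range.

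The log2 fold change of Cebpd in LSK was 0.82 (SE 1.29, 95% interval −2.19 to 3.83, adjusted p = 0.903), and 0.23 without wild-type replicate 6. In wild-type cells Cebpd averaged 37.0 ± 17.6 CPM in CMP and 9.68 ± 8.26 CPM in LSK, with no overlap (log2 fold change 2.00, SE 1.203, 95% interval −0.81 to 4.80, adjusted p = 0.408). Without wild-type LSK replicate 6 the difference was 1.43 (adjusted p = 0.112). In enhancer-null cells it averaged 13.8 ± 7.25 CPM in CMP and 16.8 ± 4.84 CPM in LSK (log2 fold change −0.28, 95% interval −2.12 to 1.57, adjusted p = 0.984). Exons of Spidr on the opposite strand overlap 562 bases of the Cebpd exon, and Spidr averaged 40.6 ± 20.4 CPM in enhancer-null CMP and 37.7 ± 10.6 CPM in wild-type CMP.

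Cebpe (ENSMUSG00000052435.7, chr14:54710360-54712174, minus strand, 2 exons) had the lowest mean length-corrected level of the family in both wild-type groups. In wild-type LSK its range overlapped that of Cebpa. Cebpe had 0, 12 and 0 counts in enhancer-null CMP, against 95, 13 and 10 counts in wild-type CMP. At 0.588 CPM, enhancer-null CMP replicate 2 lay just under wild-type CMP replicate 8 at 0.647 CPM. The separation of these groups thus rests on a few counts. In LSK Cebpe had 0, 4 and 18 counts in enhancer-null cells, against 157, 0 and 32 counts in wild-type cells. In each cell type wild-type replicate 1 held most of the counts, and wild-type LSK replicate 6 held none, which at its depth allows up to 0.21 CPM. The log2 fold change in CMP was −2.79 (SE 2.08, 95% interval −7.64 to 2.07, adjusted p = 0.688). It was −7.72 without enhancer-null replicate 2, −1.74 without wild-type replicate 1 and −4.32 with sex as a covariate. Late neutrophil markers, summed over 10 genes that include known targets of C/EBPε, were at 5.42 to 29.8 CPM in enhancer-null CMP, 27.7 to 2140 CPM in wild-type CMP, 9.22 to 28.3 CPM in enhancer-null LSK and 127 to 1370 CPM in wild-type LSK. Of these 10, 5 to 9 had counts in an enhancer-null CMP library, 7 to 10 in wild-type CMP, 8 to 10 when LSK cells were enhancer-null and 8 to 10 when they were wild type, so that no marker was at 0 in a whole group. The CMP ranges of the sum overlapped. Wild-type replicate 1, with most of the Cebpe counts, had the highest sum in each cell type, 2140 CPM in CMP and 1370 CPM in LSK. Enhancer-null CMP replicate 2, with 12 Cebpe counts, had 29.8 CPM, against 5.42 and 6.87 CPM in replicates 1 and 7. Wild-type LSK replicate 6, with no Cebpe count, had a sum of 268 CPM, against 127 CPM in replicate 8. The part of these markers in the level of Cebpe was not tested.

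Cebpg (ENSMUSG00000056216.9, chr7:35046422-35056573, minus strand, 3 merged exons) is the neighbour of Cebpa on chromosome 7, with 62.7 kb between the genes. Its level was 7.84, 71.4 and 34.2 CPM in enhancer-null CMP, against 93.0, 70.2 and 93.0 CPM in wild-type CMP. Enhancer-null replicates 1 and 7 lay below all wild-type libraries and replicate 2 within their range. The log2 fold change was −1.16 (SE 0.68, 95% interval −2.74 to 0.42, adjusted p = 0.572). Leaving out enhancer-null replicate 1 made it −0.71, and leaving out replicate 2 made it −2.0 (adjusted p = 0.189). In LSK it averaged 78.9 ± 16.5 CPM in enhancer-null cells and 103.7 ± 43.4 CPM in wild-type cells (log2 fold change −0.37, 95% interval −1.17 to 0.44, adjusted p = 0.84). Unlike that of Cebpa, the level of Cebpg in CMP stayed above 5 CPM in every enhancer-null library. The cell type comparisons gave −0.23 in wild-type (adjusted p = 0.754) and −1.04 in enhancer-null cells (adjusted p = 0.865), the second being −0.56 without enhancer-null CMP replicate 1 and −1.90 without replicate 2.

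Cebpz (ENSMUSG00000024081.9, chr17:78919006-78937066, minus strand, 16 merged exons) encodes a CCAAT-binding protein with a role in the nucleolus and is not a bZIP protein. It averaged 116 ± 61.5 CPM in enhancer-null CMP and 130 ± 12.7 CPM in wild-type CMP, with enhancer-null replicate 1 at 45.5 CPM and all other CMP libraries between 117 and 155 CPM. In LSK it averaged 176 ± 59.8 CPM in enhancer-null cells and 156 ± 59.96 CPM in wild-type cells. The 4 log2 fold changes lay between −0.58 and 0.20, with adjusted p from 0.7365 to 0.94. The interval of the CMP difference, −1.16 to 0.87, still allows a change of more than 1 unit downwards, and without enhancer-null replicate 1 its sign turned to 0.21. The overlap with Cebpzos, on the other strand, covers 3.67% of the Cebpz exons.

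Ddit3 (ENSMUSG00000025408.15, chr10:127290774-127296288, plus strand, 4 merged exons) encodes CHOP, the stress-induced member that pairs with other C/EBP proteins. The level was 40.7, 13.03 and 21.9 CPM in enhancer-null CMP, against 18.5, 13.1 and 12.6 CPM in wild-type CMP. LSK libraries held 9.45, 11.1 and 10.8 CPM when enhancer-null, against 21.4, 37.6 and 16.0 CPM when wild type. The groups overlapped in CMP, while in LSK every enhancer-null library lay below every wild-type library. The log2 fold change was 0.79 in CMP (SE 0.64, 95% interval −0.71 to 2.28, adjusted p = 0.724) and −1.24 in LSK (SE 0.61, 95% interval −2.65 to 0.18, adjusted p = 0.668). The difference between these effects was 2.06 (SE 0.92, 95% interval 0.06 to 4.05, unadjusted p = 0.0442, adjusted p = 0.632) and stayed positive over all 18 alternatives, between 1.43 and 2.25, with adjusted p from 0.0894 to 0.941.

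Between the cell types Ddit3 averaged 14.7 ± 3.27 CPM in wild-type CMP and 25.01 ± 11.2 CPM in wild-type LSK (log2 fold change −0.71, 95% interval −1.98 to 0.55, adjusted p = 0.524). In enhancer-null cells it averaged 25.2 ± 14.1 CPM in CMP and 10.4 ± 0.86 CPM in LSK, with no overlap (log2 fold change 1.27, SE 0.73, 95% interval −0.41 to 2.96, adjusted p = 0.831). The highest Ddit3 value of the enhancer-null libraries was in CMP replicate 1, and that of the wild-type libraries in LSK replicate 6. Without the first the CMP genotype difference was 0.24, and without the second the LSK difference was −0.84. The symbol stands for 2 gene records in the annotation, and 3.97% of its exon bases overlap Mars on the other strand. Mars stood at 66.1, 13.3 and 104 CPM in wild-type LSK replicates 1, 6 and 8, where Ddit3 was at 21.4, 37.6 and 16.0 CPM. The part of reads of this overlap in the level of Ddit3 was not tested.

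**Figure D2:**
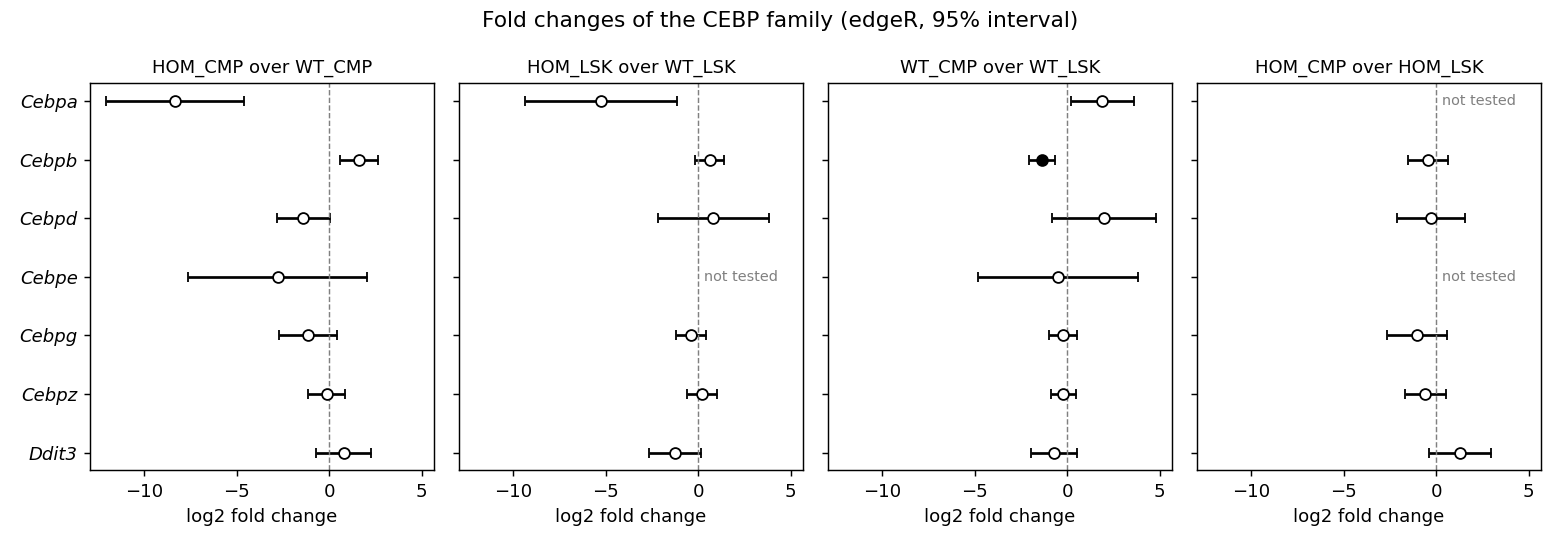
Fitted log2 fold change of each CEBP family gene in the genotype comparisons (HOM, enhancer-null, over WT) and the cell type comparisons (CMP over LSK), with 95% intervals from edgeR; the filled point is the one with an adjusted p below 0.05. Cebpb between the wild-type cell types, at −1.36, is that point, and the intervals of Cebpa in both genotype panels lie below 0.

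The makeup of the family was described by the share each member held of the 7 genes' counts in a library, a measure that needs no scaling between libraries. Summed, the family stood at 374 to 571 CPM in enhancer-null CMP, 321 to 421 CPM in wild-type CMP, 471 to 729 CPM in enhancer-null LSK and 495 to 583 CPM in wild-type LSK. The sums of the genotypes thus overlapped in both cell types. Cebpb held 79.7%, 41.4% and 41.8% of family counts in enhancer-null CMP replicates 1, 2 and 7, against 27.2%, 19.9% and 21.3% in wild-type CMP replicates 1, 6 and 8. Every enhancer-null library exceeded every wild-type one, also with replicate 1 left aside. Cebpa held 0%, 0.0348% and 0% in enhancer-null CMP, where a count of 3 corresponds to 0.0348% to 0.0606%, against 4.11%, 4.68% and 7.76% in wild-type CMP. Exact 95% binomial intervals of these shares were at most 2.48 percentage points wide and cover counting error only.

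Cebpg held 9.14 ± 7.77% of family counts in enhancer-null CMP and 22.7 ± 1.24% in wild-type CMP, a difference of −13.5 percentage points (SD, n = 3 each). Cebpd held 2.91 ± 0.94% and Cebpe 0.0464 ± 0.0804% in enhancer-null CMP, against 9.69 ± 3.62% and 0.37 ± 0.302% in wild-type CMP. For Cebpa, Cebpb, Cebpd, Cebpe and Cebpg the CMP groups did not overlap, and the two-sided exact permutation test over libraries gave p = 0.1 for each, the smallest that 3 against 3 allows (adjusted p = 0.233 over the 28 tests of 7 members in 4 comparisons). The mean share of Cebpb was 31.5 percentage points higher in enhancer-null CMP, and 18.8 points higher without replicate 1. Shares within a library add up to 100%, so that a higher share of 1 member lowers the others by arithmetic. Cebpz held 28.2 ± 17.8% when enhancer-null and 35.0 ± 6.43% when wild type, Ddit3 5.36 ± 2.07% when enhancer-null and 3.92 ± 0.58% when wild type, and both overlapped.

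In LSK, Cebpb held 67.8%, 50.8% and 43.7% in enhancer-null cells, against 52.2%, 27.3% and 53.3% in wild-type cells, and overlapped (exact permutation p = 0.6). Cebpa (0.0251 ± 0.0343% in enhancer-null and 1.07 ± 0.52% in wild-type LSK), Cebpg (12.6 ± 1.31% in enhancer-null and 19.0 ± 6.31% in wild-type LSK) and Ddit3 (1.72 ± 0.49% in enhancer-null and 4.604 ± 1.72% in wild-type LSK) had lower shares in each enhancer-null library, with exact p = 0.1 and adjusted p = 0.233. For Cebpg that difference was −6.45 points, and −2.85 points without wild-type replicate 6. Its groups overlapped by length-corrected share (exact permutation p = 0.2) and by share without Cebpz (exact permutation p = 0.4). Between the wild-type cell types the shares of Cebpa and Cebpd were higher in CMP by 4.45 and 7.79 points, and that of Cebpb lower by a difference of −21.5 points, each without overlap and with exact p = 0.1. Between the enhancer-null cell types the shares of Cebpb were 54.3 ± 22.0% in CMP and 54.1 ± 12.4% in LSK. There Ddit3 alone did not overlap, at 5.36 ± 2.07% in CMP and 1.72 ± 0.49% in LSK.

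**Figure D3:**
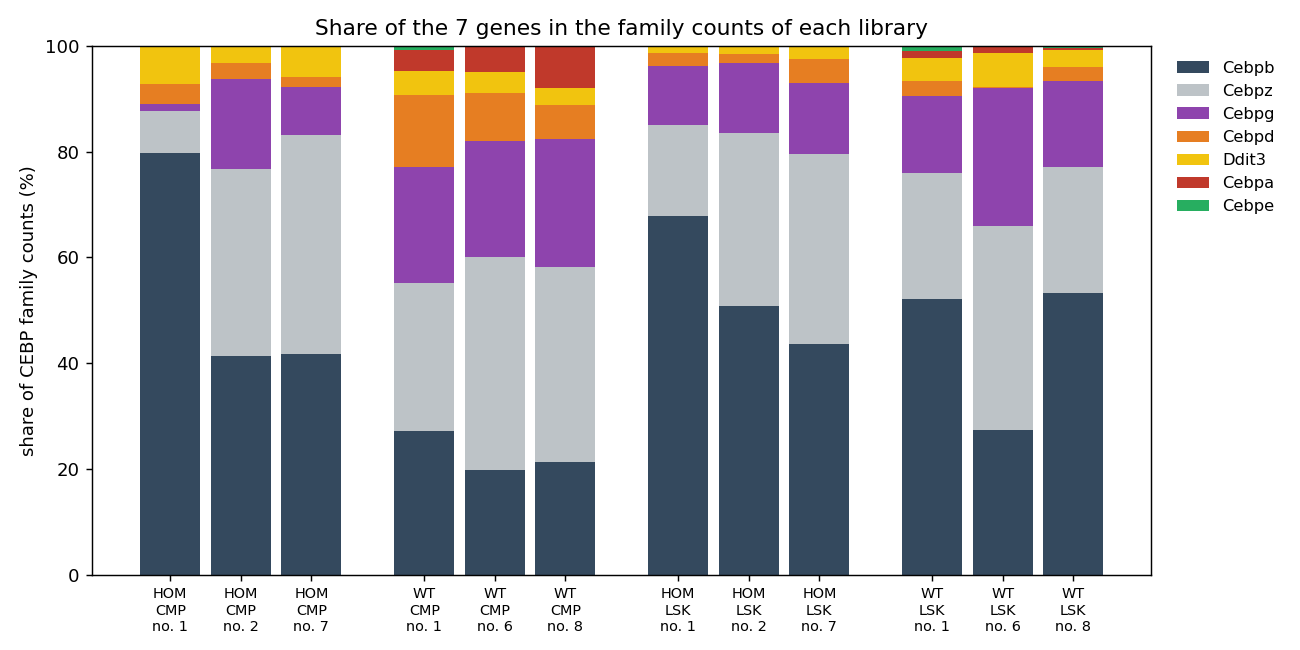
Share of each CEBP family gene in the summed counts of the 7 genes, in percent, with 1 stacked bar per library (HOM, enhancer-null; WT, wild type). Cebpb takes 41.4% to 79.7% of the bar where CMP were enhancer-null and 19.9% to 27.2% where they were wild type, and the Cebpa segment is seen in the wild-type bars only.

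As a ratio within a library, Cebpa had at most 0.084 counts for every 100 of Cebpb in enhancer-null CMP, against 15.1, 23.6 and 36.5 in wild-type CMP. In LSK it had at most 0.147 in enhancer-null cells, against 2.52, 5.18 and 0.877 in wild-type cells. The wild-type CMP libraries thus all had a higher ratio than the wild-type LSK libraries. Cebpg had 1.72, 40.8 and 21.9 counts for every 100 of Cebpb in enhancer-null CMP, against 81.3, 110 and 113 in wild-type CMP, again without overlap.

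Levels of different members were compared as CPM per kb of merged exon, since their exons run from 1241 bases (Cebpe) to 5621 bases (Cebpg). On this scale Cebpb was first in all 4 groups, at 174 ± 111 in enhancer-null CMP, 57.7 ± 17.0 in wild-type CMP, 232 ± 89.1 in enhancer-null LSK and 155 ± 43.0 in wild-type LSK (CPM per kb, SD, n = 3 each). It lay above Cebpz, the next, in every library of each group. By mean, Cebpa was last in both enhancer-null groups, where its range overlapped that of Cebpe, the next above it. It was sixth in both wild-type groups. In wild-type LSK its range overlapped that of Cebpe, which was higher in replicates 1 (3.65 against 2.47 CPM per kb) and 8 (1.63 against 0.933). In replicate 6 Cebpe was at 0 and Cebpa at 3.13 CPM per kb. In wild-type CMP Cebpa averaged 7.87 ± 3.05 CPM per kb, which overlapped Ddit3 (8.60 ± 1.91) and lay apart from Cebpe (1.18 ± 1.08). Ddit3 stood next after Cebpz in enhancer-null CMP, at 14.7 ± 8.25 CPM per kb, and overlapped Cebpz and Cebpg there. By share of these length-corrected levels, Cebpb held 73.8 ± 12.5% in enhancer-null CMP and 44.4 ± 4.77% in wild-type CMP.

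**Figure D4:**
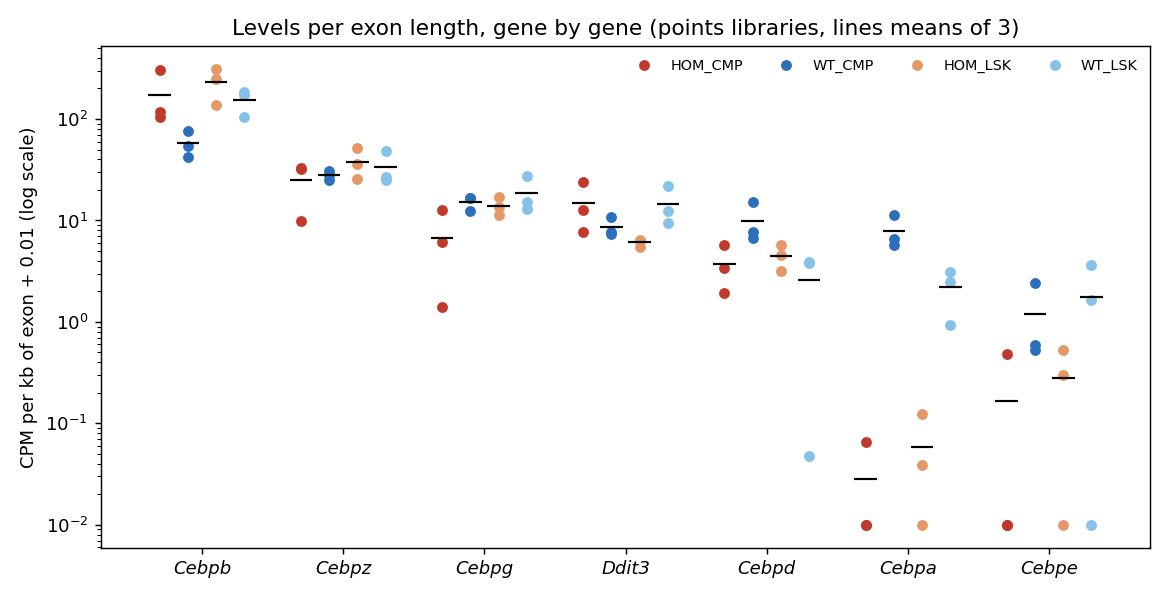
Levels of the CEBP family genes per kb of merged exon (CPM per kb + 0.01, log axis), grouped by gene and coloured by group; each point is 1 library and each line the mean of 3. Cebpb lies highest in all 4 groups, and Cebpa spans from the floor of the axis in enhancer-null (HOM) cells to 11.4 CPM per kb in wild-type (WT) CMP.

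Genes known to act with or under the family were counted in lists, whose medians stand beside that of all genes tested (−0.02 in the CMP genotype comparison, −0.01 in LSK and −0.01 between the wild-type cell types). Of 14 early myeloid C/EBP targets, 0 passed as higher and 3 as lower in enhancer-null CMP, with a median log2 fold change of −2.30. Irf8, a factor of monocyte commitment, averaged 77.1 ± 7.07 CPM in enhancer-null and 497 ± 104 CPM in wild-type CMP (log2 fold change −2.68, SE 0.21, adjusted p = 0.00425). Ctsg, the granule protease cathepsin G, fell by 3.49 (adjusted p = 0.0123) and the lectin receptor gene Clec12a by 1.93 (adjusted p = 0.0398) on the log2 scale. In LSK 1 of the 14 was higher and 0 lower, with a median of −0.04. That gene was Mpo, the peroxidase of primary granules, at 1790, 2300 and 1220 CPM in enhancer-null LSK, against 449, 306 and 340 CPM in wild-type LSK (log2 fold change 2.31, SE 0.26, adjusted p = 0.0395). Mpo was thus higher in the LSK libraries where Cebpa was near 0, while its CMP level was 2670, 2360 and 3200 CPM in enhancer-null cells, against 4900, 4450 and 4050 CPM in wild-type cells. The difference of its genotype effects passed (−2.96, adjusted p = 0.000732), as did those of Irf8, Csf1r and Ctsg, all 4 lower in CMP relative to LSK. Between the wild-type cell types 6 of the 14 were higher in CMP and 0 lower, with Mpo at 3.67 (adjusted p = 0.000204), and between the enhancer-null cell types 0 of 12 tested passed.

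Of 3 genes that C/EBPα is known to repress, Sox4 and Mycn passed as higher in enhancer-null CMP. Sox4, a progenitor factor, averaged 1180 ± 241 CPM in enhancer-null and 388 ± 77.5 CPM in wild-type CMP (log2 fold change 1.62, SE 0.21, adjusted p = 0.0251). Mycn averaged 311 ± 166 CPM in enhancer-null and 26.4 ± 13.4 CPM in wild-type CMP (log2 fold change 3.57, SE 0.54, adjusted p = 0.0459). In LSK 0 of the 3 passed, and between the wild-type cell types the same pair was lower in CMP, Mycn by a log2 fold change of −2.50 (adjusted p = 0.0217) and Sox4 by −1.22 (adjusted p = 0.0307). Late granule targets, genes of neutrophil maturation, had a median of −5.81 over the 9 of 12 tested in CMP and −5.53 over the 7 tested in LSK, with 0 passing in either. Their levels rested on few wild-type libraries, as S100a9 shows with 3.14 ± 3.79 CPM in enhancer-null and 191 ± 281 CPM in wild-type CMP (adjusted p = 0.197).

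The pathway that induces Cebpb and Cebpd, IL-6 and STAT3 signalling, had 2 of 11 tested genes higher and 0 lower in enhancer-null CMP, with a median of 1.14. Socs3, the feedback inhibitor of the pathway, stood at 296, 233 and 247 CPM in enhancer-null CMP, against 9.14, 9.31 and 3.43 CPM in wild-type CMP (log2 fold change 5.16, SE 0.43, adjusted p = 0.00619). Junb, an AP-1 subunit, was the other, at 864 ± 135 CPM in enhancer-null and 272 ± 86.9 CPM in wild-type CMP (log2 fold change 1.69, SE 0.24, adjusted p = 0.0359). In LSK 0 of 11 passed, with Socs3 at 496, 595 and 540 CPM in enhancer-null cells, against 70.3, 11 and 119 CPM in wild-type cells (log2 fold change 3.05, SE 0.72, adjusted p = 0.281). Cebpd, which the same pathway induces, had log2 fold changes of −1.41 in CMP (adjusted p = 0.412) and 0.82 in LSK (adjusted p = 0.903). Its sign was thus opposite to that of Socs3 in CMP and the same in LSK. The part of this pathway in the levels of Cebpb and Cebpd was not tested.

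Among 24 genes of the integrated stress response, the arm of ATF4 and CHOP, 0 of the 20 tested passed in CMP and 0 of the 22 tested in LSK, with medians of −0.40 and −0.17. Trib3 is a pseudokinase gene that CHOP and ATF4 induce. It had 0, 0 and 1 counts in enhancer-null LSK, against 476, 356 and 237 counts in wild-type LSK, or 13.7, 24.9 and 15 CPM (adjusted p = 0.0785). In CMP it had 1, 0 and 0 counts in enhancer-null and 18, 4 and 6 counts in wild-type cells, and it was lower in wild-type CMP than in wild-type LSK (log2 fold change −5.42, SE 0.99, adjusted p = 0.0282). In LSK it thus lay on the same side as Ddit3, while in enhancer-null CMP, where Ddit3 averaged 25.2 CPM, it was near 0. In the same comparison of wild-type CMP with LSK, Asns, the asparagine synthetase gene that ATF4 induces, was higher by 2.70 (adjusted p = 0.0116) and Ppp1r15a, a phosphatase subunit gene induced by stress, had a log2 fold change of −1.26 (adjusted p = 0.0198).

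Of 32 other bZIP genes tested in CMP, 2 passed as higher (Junb and Nfe2, Nfe2 being a factor of megakaryocyte and erythroid cells, by 1.34, adjusted p = 0.0459) and 0 as lower, with a median of −0.01. In LSK 0 of 33 passed. Between the wild-type cell types 0 of 33 were higher and 4 lower in CMP, led by Hlf, a stem cell factor (log2 fold change −5.07, adjusted p = 8.37e-05). Of 8 regulators of C/EBP protein turnover and translation, 0 passed in either genotype comparison or between the wild-type cell types. Of 12 factors of stem and progenitor enhancers 0 passed in CMP, where Gata2 was at 389 ± 217 CPM in enhancer-null and 60.4 ± 14.9 CPM in wild-type cells (adjusted p = 0.0539), while in LSK Lmo2 was lower (log2 fold change −1.59, adjusted p = 0.0128). The difference of the genotype effects passed for Gata2 (3.22, adjusted p = 0.02). In the comparison of the wild-type cell types 4 of the 12 passed, all lower in CMP: Lmo2 (−1.43, adjusted p = 0.00268), Meis1 (−2.89, adjusted p = 0.00649), Hoxa9 (−2.06, adjusted p = 0.0135) and Gata2 (−1.94, adjusted p = 0.0164). Of 22 nucleolar biogenesis genes, the process of Cebpz, 0 passed in either genotype comparison and 3 were higher in wild-type CMP than in wild-type LSK (Ncl, Npm1 and Fbl, by 0.64 to 0.83).

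Over the 12 libraries, the genes most like each member were ranked by Pearson's r of log2(CPM + 1) among 10486 named genes that averaged 5 CPM or more in some group. Nearest to Cebpa were Mpeg1 (r = 0.945), Dram1 (0.936) and Slpi (0.93). Mpeg1, the gene of a macrophage pore protein, averaged 0.724 CPM in enhancer-null and 68.2 CPM in wild-type CMP, and 2.32 CPM in enhancer-null and 8.80 CPM in wild-type LSK, the order of groups seen for Cebpa. Nearest to Cebpb were Celf2 (0.977), Ypel5 (0.955) and Rps6ka3 (0.936). Nearest to Cebpd were Dirc2 (0.946), Ppil1 and Uxt (0.94 each), to Cebpg Papd5 (0.972), Creb3 (0.968) and Zfp367 (0.967), to Cebpz Nr2c1 (0.933), Eps15l1 (0.931) and Cdkn2aip (0.922), and to Ddit3 Rnf41 (0.912), Wipf2 (0.903) and Tm2d1 (0.902). Among the 15 pairs of 6 members, Cebpe not being included, the most negative coefficient was that of Cebpa with Cebpb (−0.745) and the most positive that of Cebpg with Cebpz (0.81). These coefficients mix differences between the 4 groups with those between libraries of a group, and the 12 libraries share groups, so they are given as descriptions without a test.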

How the data were processed

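Total RNA of sorted CMP and LSK cells was made into cDNA with a kit for very small inputs and sequenced as read pairs of 75 bp, per the labels' protocols. The authors deposited raw counts per gene symbol, 1 table per library. TopHat2 2.0.4, TopHat, Bowtie and HTSeq and the mm10 build are named in the submitters' processing notes. Which annotation and strand setting were used is not given in the sources used here. Rows without a gene name, 37.2% to 46.9% of a library's counts, were not used. One table, wild-type CMP replicate 6, had 23456 symbols, where the other tables had 24420. The tables were joined on 22779 identical symbols and 608 that RefSeq (GRCm38.p6) links as older names, which left 0.0693% to 0.297% of gene counts out. Positions and exon lengths are those of GENCODE for GRCm38.

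From these counts, differential expression was computed in R 4.3.3 with edgeR 4.0.16 (robust quasi-likelihood test, TMM, default filter with a minimum count of 10) on the 6 libraries compared, or on all 12 for the difference of genotype effects. P-values were adjusted by Benjamini-Hochberg over all genes tested. The standard error is the log2 fold change over the root of the F statistic, and the 95% interval uses the t distribution with edgeR's degrees of freedom. The biological coefficient of variation was 0.719 to 0.823, which limits what 3 libraries a group can show. A floor of 3 counts corresponds to 0.0604 to 0.482 CPM. Shares were compared by exact permutation over libraries (SciPy 1.17.1). Alternatives were RLE scaling, DESeq2 1.42.0, no filter and a stricter filter, sex as a covariate, 1 fit of all libraries, a replicate block and leaving out each library, and for shares counts per exon length and shares without Cebpz. The fits were also run on simulated data, whose spread was set below that of these libraries. That run therefore does not show how many true changes were missed here. Named were all members, the 3 genes most like each member with at least 5 CPM in a group, the genes overlapping or next to a member and, per list, up to 4 members past the threshold or else that with the smallest p. The values of Mpo in CMP, of Trib3 in CMP, of Socs3 in LSK and of Mars were named outside this rule after they were seen, or by it in another comparison. The members and lists were chosen with earlier results of these data known.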

Additional observations from a re-analysis of the deposited data

How the results depend on the processing

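The counts of genes called depended on the method. In the CMP genotype comparison (62) they were 893 with DESeq2, 269 without a filter, 31 with sex as a covariate, 232 with all 12 libraries in 1 fit and 7 to 91 without 1 library. In LSK (12) they were 390, 39, 3 and 26 under the same alternatives and 1 to 21 without 1 library. Between the wild-type cell types (507) they were 2112 with DESeq2, 285 with sex as a covariate, 137 with the replicate block and 56 to 882 without 1 library. Between the enhancer-null cell types (0) they were 366 with DESeq2, 9 without a filter and 37 with all 12 libraries. For the difference of genotype effects (37) they were 243 with DESeq2, 68 without a filter, 7 with the replicate block and 12 to 107 without 1 library. Over 10187 genes, deviations from the group means correlated at −0.035 to 0.093 between same-numbered CMP and LSK libraries. Between differently numbered libraries of a genotype they correlated at −0.093 to 0.08. Late neutrophil markers had the same order by number in both cell types of each genotype. Their sums in wild-type replicates 1, 6 and 8 were 2140, 261 and 27.7 CPM in CMP and 1370, 268 and 127 CPM in LSK. In enhancer-null replicates 1, 2 and 7 they were 5.42, 29.8 and 6.87 CPM in CMP and 9.22, 28.3 and 19.3 CPM in LSK. The sex read from the counts was the same in all 6 same-numbered pairs, so that a pairing by animal is not settled. The fits reported are unpaired, and the genotypes share number 1 only. With the replicate block the wild-type change of Cebpb was −1.37 (adjusted p = 0.0607), and adding sex gave an adjusted p of 0.0614.

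Of 438 alternative values of the members' log2 fold changes, 411 kept the direction and the side of the threshold, 13 changed sign, 8 lost a call and 6 gained one. Sign changes touched differences near 0: Cebpe between the wild-type cell types (0.38 with the replicate block, −1.63 to 0.58 without 1 library), and without 1 library Cebpz in CMP (−0.41 to 0.21) and LSK (−0.093 to 0.54), Cebpg in LSK (−0.57 to 0.005), Cebpg (−0.45 to 0.18) and Cebpz (−0.40 to 0.17) between the wild-type and Cebpd (−0.73 to 0.035) between the enhancer-null cell types, and the difference of genotype effects of Cebpe (−5.28 to 0.93). Of 234 share differences 31 changed sign. Per exon length these were, in percentage points, Ddit3 in CMP (−0.243), Cebpe (0.108) and Ddit3 (0.108) between the wild-type cell types, and Cebpb (−3.44), Cebpd (−0.0966) and Cebpz (0.376) between the enhancer-null cell types. Without Cebpz they were Cebpb (−1.22) and Cebpd (−0.157) between the enhancer-null cell types. Without 1 library they were Cebpz in CMP (−13.4 to 3.28) and LSK (−3.72 to 5.57), Cebpe (−0.279 to 0.178) and Ddit3 (−1.47 to 0.23) between the wild-type cell types, and between the enhancer-null cell types Cebpa (−0.026 to 0.00607), Cebpb (−12.5 to 7.07), Cebpd (−0.607 to 0.869), Cebpe (−0.055 to 0.0146), Cebpg (−7.33 to 0.44) and Cebpz (−6.95 to 9.71). The cause of these changes was not tested. The lower Cebpa and higher Cebpb of enhancer-null CMP kept their direction under every alternative run, as log2 fold changes and as shares. Cebpe, at under 5 CPM in every library, is limited by depth.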
